A study of Homo sapiens with 6 samples.

Results

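The ovarian cancer stem cell marker genes are a set of 10 genes used to pick out tumour cells with stem cell traits in ovarian carcinoma: the retinaldehyde dehydrogenases ALDH1A1, ALDH1A2 and ALDH1A3, the surface markers CD44, CD24, PROM1 (CD133) and KIT (CD117), and the transcription factors SOX9, SOX4 and KLF4. Every probe whose only listed gene was one of these was taken, which gave 18 of the 47314 probes on the array, and 10 of the 20043 gene symbols. The members were chosen by name, with earlier results of these data known. The cells were SKOV-3, an established line grown from a human ovarian carcinoma, and their RNA was read on Illumina bead arrays. The 3 siHBO1 arrays hold total RNA of cells transfected with siRNA against HBO1, and the 3 siCtrl arrays that of cells given a scramble siRNA. In both groups RNA was taken 48 h after the siRNA was given. The gene behind HBO1 is KAT7, a histone acetyltransferase of the MYST family whose role in this line the study asks about. The siRNA sequences were not used here. No label ties the replicates to separate cultures, and every p-value given here for a group difference reflects only how far these arrays scatter, which could be technical.

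The ALDH1A enzymes oxidise retinaldehyde to retinoic acid, and their activity in the ALDEFLUOR assay is used to sort stem-like cells from ovarian tumours. CD44 binds hyaluronan, PROM1 is a pentaspan glycoprotein of membrane protrusions, KIT is the receptor tyrosine kinase for stem cell factor, and CD24 is a small, heavily glycosylated protein on a lipid anchor. CD44 and CD24 are often read together, as CD44+CD24- cells, while in ovarian carcinoma CD24+ cells have been used as the stem-like fraction as well. SOX9, SOX4 and KLF4 are transcription factors of progenitor cells, and KLF4 is among the factors used to reprogramme cells to pluripotency.

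Across arrays 42.2% to 44.3% of probes had a detection p under 0.05, a p counted on each array against its negative control beads, and mean signal ran from 643 to 744. Normalized values of the 20744 probes kept for testing correlated at 0.972 to 0.993 between arrays, across probes, which are not independent replicates. The range was 0.975 to 0.981 among siHBO1 arrays, 0.981 to 0.993 among siCtrl arrays and 0.972 to 0.989 between a siHBO1 and a siCtrl array. The arrays are bulk samples, in which fewer cells of a type and less RNA per cell cannot be told apart. Of 14 genes listed for SKOV-3 and ovarian carcinoma, 11 were detected on all 6 arrays, among them ERBB2, PAX8, KRT8 and VIM. CDH1 (E-cadherin) was detected on 0 arrays, MUC16 on 1 and CLDN4 on 2. All 6 endothelial markers were undetected on every array. Of 7 leukocyte markers on the array, CD14 and CD68 were detected on all 6 arrays, CD52 on 3, LYZ on 1, and PTPRC, CD3E and TYROBP on 0.

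KAT7, the targeted gene, had a signal of 143, 153 and 182 on siHBO1 1 to 3, against 190 (189.7), 228 and 209 on siCtrl 1 to 3. Every siHBO1 array lay below every siCtrl array, and detection p was under 0.05 on 1 of 3 siHBO1 and 3 of 3 siCtrl arrays. The log2 difference was -1.14 (SE 0.25), with a limma adjusted p of 0.999. Its size moves with the handling of background, being -0.36 when none is corrected for and -0.69 at the larger offset of 50. The authors' deposited log2 values gave -0.71. The main value had an exact permutation p of 0.1, the smallest that 3 arrays against 3 allow.

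The stem cell markers split into a detected and an undetected part. ALDH1A3, CD44, CD24, KIT, SOX9, SOX4 and KLF4 had 12 probes with a detection p under 0.05 on all 6 arrays. ALDH1A1, ALDH1A2 and PROM1, with 5 probes, and 1 probe of CD44 did not reach 3 arrays with detection, and were not tested. For the 12 detected probes the log2 difference between siHBO1 and siCtrl was between -0.19 and 0.56 (median 0.09), against a median of 0.00 over all 20744 probes tested. It was above 0 for 7 and below 0 for 5 of them. By limma with Benjamini-Hochberg adjustment over all probes, 0 of the 12 passed an adjusted p of 0.05, and 0% of all probes did. All 12 had an adjusted p of 0.999. At an unadjusted p under 0.05 there were 0 of 12, beside 3.73% of all probes. In 0 of the 12 did the siHBO1 arrays lie all on one side of the siCtrl arrays, beside 9.98% of all probes (5.43% with siHBO1 higher and 4.55% with siHBO1 lower). No difference exceeded 1.5-fold in either direction (0 of 12, beside 1.56%). These tests bound the differences and do not show that the groups are alike: the 95% interval of the fold of KIT ILMN_1790160, for example, runs from 0.398 to 1.94.

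**Figure D1:**
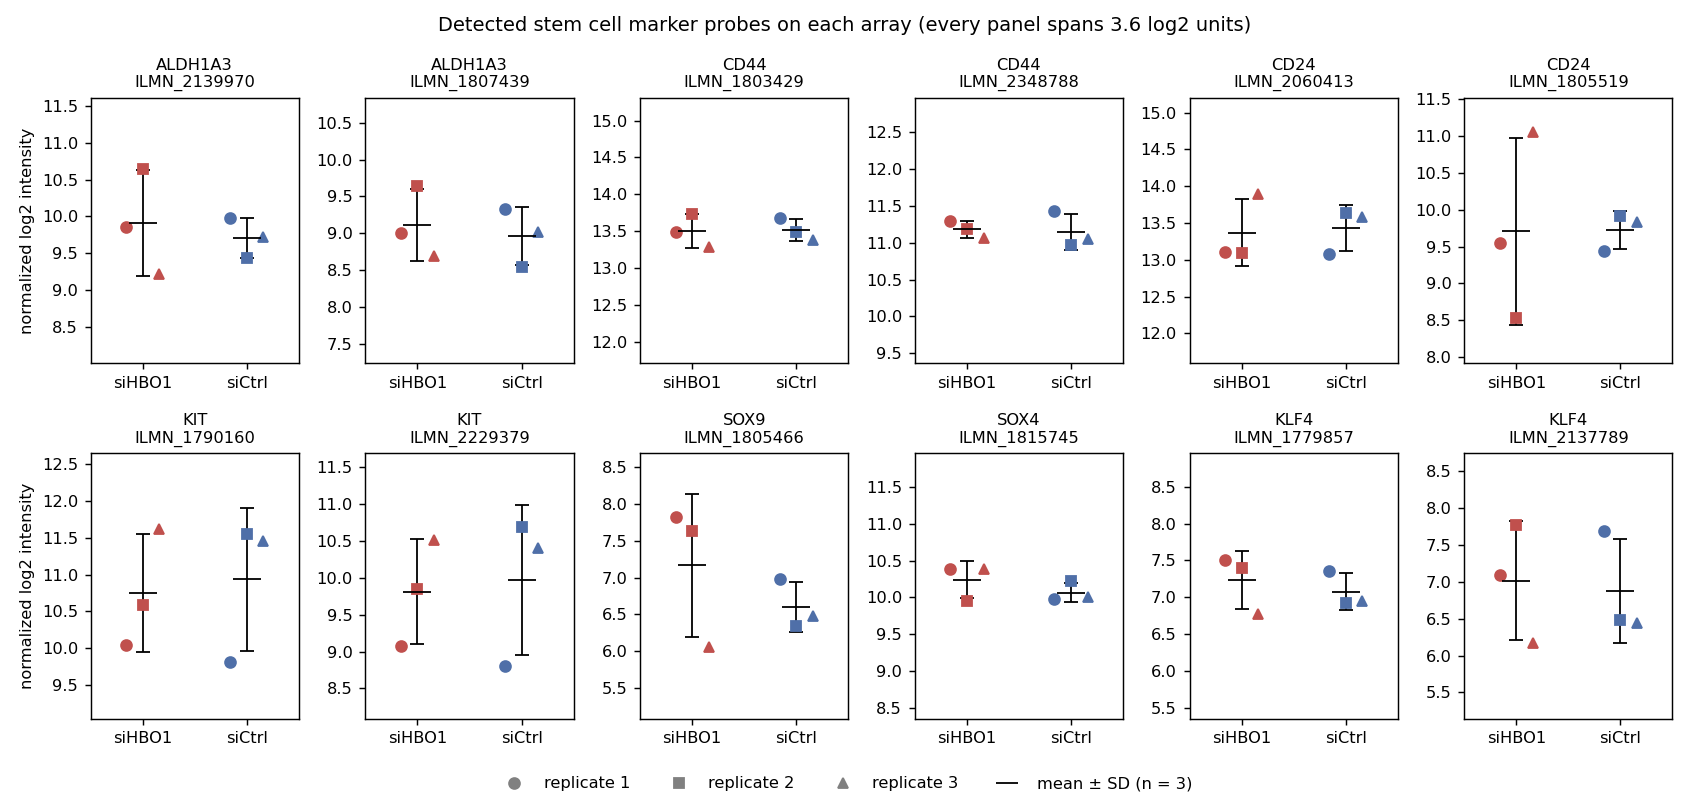
Normalized log2 intensity (vertical axis) of the 12 detected probes on each array, with siHBO1 left and siCtrl right in every panel and the mean and SD of 3 arrays as bars. The groups overlap in all 12 panels, and the arrays of one group lie far apart for KIT, SOX9, one KLF4 probe and one CD24 probe.

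Among the retinaldehyde dehydrogenases ALDH1A3 (chromosome 15) was the one detected. Its probe ILMN_2139970 read 938, 1563 and 797 on siHBO1 1 to 3, against 1214, 900.1 and 929 on siCtrl 1 to 3. The highest and the lowest of the 6 arrays were both siHBO1 arrays. On the normalized log2 scale the means were 9.91 ± 0.72 in siHBO1 and 9.71 ± 0.27 in siCtrl (SD, n = 3 each), a difference of 0.20 (SE 0.33, limma adjusted p 0.999). A second probe, ILMN_1807439, gave 0.15 (SE 0.28, limma adjusted p 0.999), with signals of 573, 823 and 598 in siHBO1 and 818, 542 and 617 in siCtrl. It too was highest on siHBO1 2, while its lowest array was siCtrl 2. Without siHBO1 2 the difference of both probes turned below 0 (-0.17 and -0.12).

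ALDH1A1 (chromosome 9), the form most often named in work on ovarian tumours, had signals of 144, 139.6 and 174 in siHBO1 and 145, 153 and 140.5 in siCtrl on its brighter probe ILMN_1709348. Its lowest detection p was 0.053, on siHBO1 3, so 0 of 6 arrays were above background. The other ALDH1A1 probe, ILMN_2096372, had detection p-values of 0.610 and more. ALDH1A2 (chromosome 15), the main retinoic acid source of the early embryo in mice, was detected on 1 array by 1 of its 2 probes: ILMN_1748538 read 166 at a detection p of 0.035 on siCtrl 3, and from 0.052 to 0.140 on the other arrays. The other ALDH1A2 probe, ILMN_2383707, had detection p-values from 0.303 to 0.730. Such values are a bound set by the array's background and give no fold between groups.

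**Figure D2:**
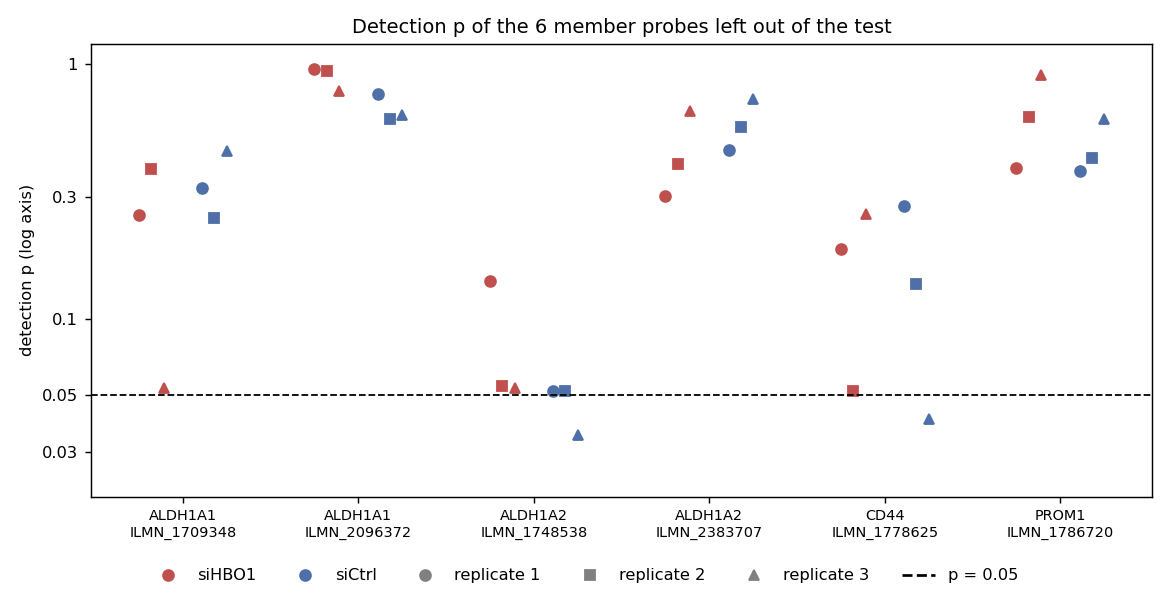
Detection p (log axis) of the 6 probes that were not tested, on each siHBO1 (red, left) and siCtrl (blue, right) array, with a dashed line at 0.05. The points under the line are siCtrl 3 for ALDH1A2 and for CD44 ILMN_1778625, and all PROM1 points lie at 0.381 or above.

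Of the surface markers, CD44 (chromosome 11) was high on all arrays and was among the steadiest members. ILMN_1803429, listed for transcript NM_001001391, read 10797, 13688 and 10829 in siHBO1, against 13077, 12088 and 10664 in siCtrl. The ranges of the groups overlapped over most of their length. The log2 means were 13.50 ± 0.22 in siHBO1 and 13.52 ± 0.15 in siCtrl, and the fold of 0.99 had a 95% interval of 0.81 to 1.21. ILMN_2348788, listed for NM_001001392, read 2353, 2232 and 2483 in siHBO1 and 3088, 2336 and 2161 in siCtrl, with a fold of 1.02 (0.81 to 1.30). The siCtrl 1 array was the highest of the 6 on this probe. ILMN_1778625, listed for NM_000610, was above background on 1 array (siCtrl 3, detection p 0.040). The 3 probes carry different transcript accessions, but their target exons were not examined here, so an isoform cannot be read from them.

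CD24 (chromosome 6) was also bright, and varied more. ILMN_2060413 read 8176, 8099.6 and 16042 on siHBO1 1 to 3, against 9234, 13128 and 12294 on siCtrl 1 to 3. The highest array was siHBO1 3, and on this raw signal both other siHBO1 arrays were below all siCtrl arrays. The difference of the means was -0.06 on the log2 scale (SE 0.23, limma adjusted p 0.999). ILMN_1805519 showed the same array on top, with 782, 442 and 2455 in siHBO1 and 867, 1196 and 996 in siCtrl, a 5.75-fold range among siHBO1 arrays after normalization and a 1.40-fold range among siCtrl arrays. Its difference was -0.02 (SE 0.52), and it was 0.57 without siHBO1 2 and -0.69 without siHBO1 3. CD24 has near-identical copies elsewhere in the genome, so its signal may include other transcripts.

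PROM1 (chromosome 4) had 1 probe, with signals of 139.7, 134.5 and 135.5 in siHBO1 and 143, 146 and 137 in siCtrl. None was above background, with detection p-values from 0.381 to 0.906. CD133 transcript was therefore not detectable by this probe in either group.

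KIT (chromosome 4) had clear signal on all arrays and a wide range that both probes shared. ILMN_1790160 read 1055, 1506 and 3550.1 on siHBO1 1 to 3, against 1094, 3384 and 2838 on siCtrl 1 to 3. Replicate 1 was the lowest array of each group, and the ranges of siHBO1 and siCtrl nearly coincided. ILMN_2229379 read 595, 939 and 1728 in siHBO1 and 603, 1944 and 1428 in siCtrl. After normalization the highest array exceeded the lowest by 2.99-fold in siHBO1 and 3.32-fold in siCtrl on the first probe, and by 2.69-fold in siHBO1 and 3.70-fold in siCtrl on the second. The differences were -0.19 (SE 0.50) and -0.15 (SE 0.50), with a limma adjusted p of 0.999 for both. Without siHBO1 3 they were -0.62 and -0.50, without siCtrl 1 they were -0.75 and -0.73, and without siHBO1 1 they were 0.17 and 0.21.

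SOX9 (chromosome 17), a factor of progenitor and duct cells in many epithelia, had the largest difference of the 12 probes. ILMN_1805466 read 324, 294 and 208 on siHBO1 1 to 3, against 261, 218 and 211 on siCtrl 1 to 3. The siHBO1 1 and 2 arrays were above all siCtrl arrays and siHBO1 3 was below them. The log2 means were 7.17 ± 0.97 in siHBO1 and 6.60 ± 0.34 in siCtrl, a difference of 0.56 (SE 0.43, 95% interval -0.42 to 1.54, limma adjusted p 0.999) and an exact permutation p of 0.4. Leaving out siHBO1 3 gave 1.12 (SE 0.25, limma adjusted p 0.897), and leaving out siHBO1 1 gave 0.24. The log2 difference was 0.32 without background correction.

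SOX4 (chromosome 6), which is raised in many carcinomas, had 1 probe, with 1303, 999.5 and 1599 in siHBO1, against 1216, 1448 and 1104 in siCtrl. The lowest and the highest array were both siHBO1 arrays. Its difference was 0.18 (SE 0.17, limma adjusted p 0.999), a fold of 1.13 with an interval of 0.87 to 1.47.

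KLF4 (chromosome 9) was above background on every array with both probes. ILMN_1779857 read 286, 269 and 257 in siHBO1, against 302, 262 and 243 in siCtrl, and differed by 0.15 (SE 0.24, limma adjusted p 0.999). ILMN_2137789 read 245, 312 and 215 in siHBO1, against 346, 228 and 208 in siCtrl, and differed by 0.14 (SE 0.45, limma adjusted p 0.999). On both probes siCtrl 1 was the highest siCtrl array and siHBO1 3 the lowest siHBO1 array.

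**Figure D3:**
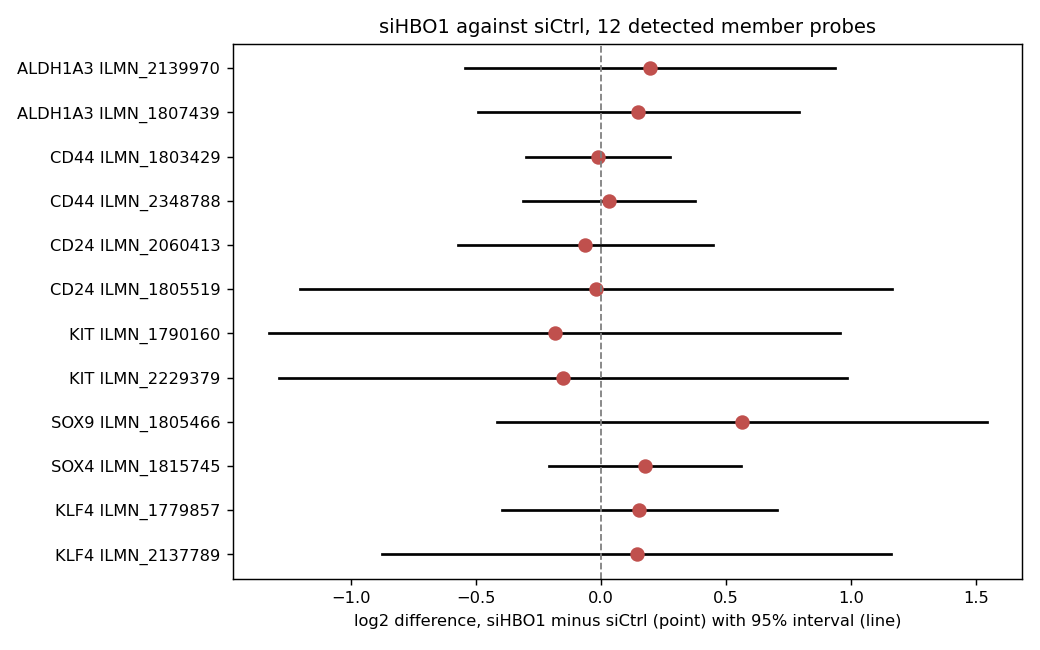
Log2 difference of siHBO1 minus siCtrl (point, horizontal axis) with its 95% interval (line) for the 12 detected probes, from the fit over all probes. All 12 intervals cross 0, from the narrow ones of CD44 (-0.30 to 0.27 on ILMN_1803429) to the wide ones of KIT (-1.33 to 0.96 on ILMN_1790160).

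The spread between arrays of one group was wide for several of these genes. The within-group SD, pooled over both groups on the log2 scale, had a median of 0.24 over all 20744 probes. It was 0.92 for CD24 ILMN_1805519, 0.89 for KIT ILMN_1790160 and 0.88 for KIT ILMN_2229379, which ranked 188, 206 and 217 of 20744 from the top. KLF4 ILMN_2137789 (0.76, rank 367), SOX9 (0.73, rank 428) and ALDH1A3 ILMN_2139970 (0.54, rank 1172) followed. SOX9 (signal 208 to 324) and KLF4 ILMN_2137789 (208 to 346) were low on all arrays. Without background correction the SE of the group difference was 0.21 instead of 0.43 for SOX9, and 0.22 instead of 0.45 for KLF4 ILMN_2137789. For KIT ILMN_1790160 it was 0.47 instead of 0.50, and for ALDH1A3 ILMN_2139970 0.29 instead of 0.33. Of the 12 member probes, 6 were among the 10% of probes with the widest spread and 2 among the 1% with the widest. Both detected CD44 probes (0.19 each) and SOX4 (0.20) lay below the median.

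**Figure D4:**
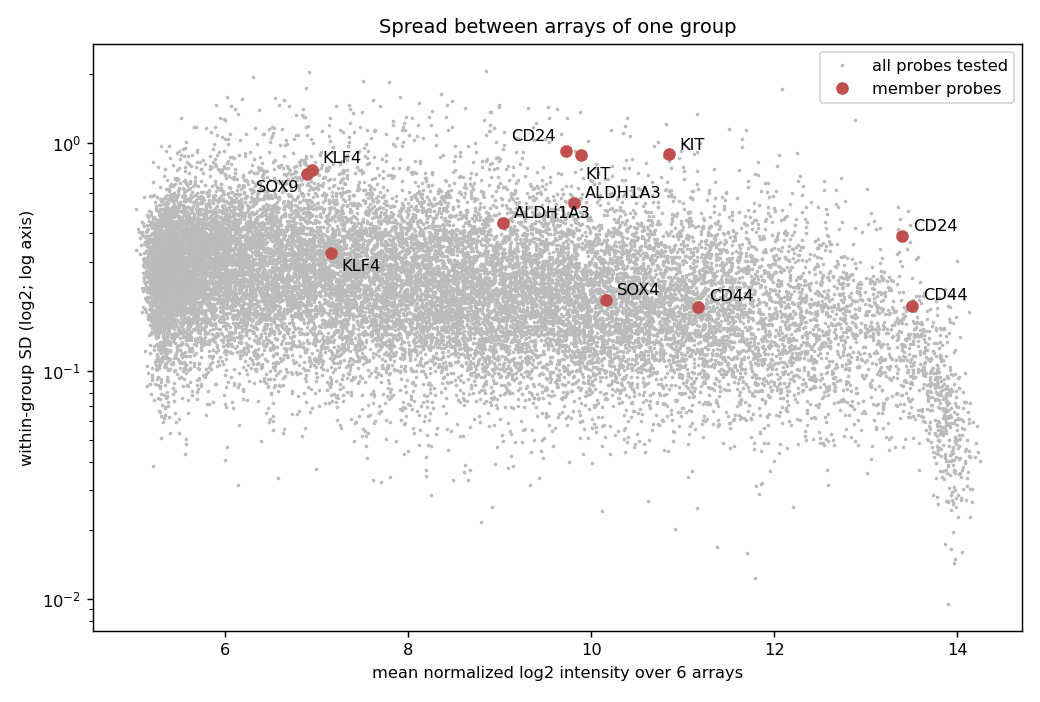
Within-group SD (log2, log axis) against mean normalized log2 intensity over 6 arrays, for all 20744 probes tested (grey) and the 12 member probes (red). KIT, at 0.89 and 0.88, and one CD24 probe, at 0.92, sit near the top of the cloud at their intensity, while CD44 and SOX4 lie inside it.

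These deviations shared their signs on several arrays, but were not all largest on the same array. On siHBO1 2, CD24 ILMN_1805519 deviated by -1.18, KIT ILMN_1790160 by -0.16 and KIT ILMN_2229379 by 0.04. KIT and CD24 were below their group mean on siHBO1 1 and siCtrl 1 and above it on siHBO1 3, siCtrl 2 and siCtrl 3, on all 4 of their probes. SOX9 and both KLF4 probes did the reverse on each of those arrays. For KIT ILMN_1790160 the deviations were -0.71, -0.16 and 0.87 log2 on siHBO1 1 to 3, and -1.12, 0.61 and 0.52 on siCtrl 1 to 3. For SOX9 they were 0.65, 0.46 and -1.11 on siHBO1 1 to 3, and 0.38, -0.26 and -0.12 on siCtrl 1 to 3. ALDH1A3 ILMN_2139970 deviated upward on siHBO1 2 (0.74) and siCtrl 1 (0.26) and downward on siHBO1 3 (-0.69) and siCtrl 2 (-0.27). The same ALDH1A3 probe was near its group mean on siHBO1 1 (-0.05) and siCtrl 3 (0.01).

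A list of inflammatory genes was chosen because they were known to vary between these arrays, so its spread is no finding. The mean of its 9 measured genes deviated by 0.84, 0.30 and -1.14 log2 on siHBO1 1 to 3 and by 1.17, -0.57 and -0.60 on siCtrl 1 to 3. It thus had the sign of SOX9 and both KLF4 probes, and the opposite sign of KIT ILMN_1790160 and both tested CD24 probes, on all 6 arrays. KIT ILMN_2229379 shared the list's sign on siHBO1 2 (0.04). Deviations from a group mean sum to 0 within the group, so the signs of its 3 arrays are not independent. Its single genes were not all alike, and TNFAIP3, NFKBIA and LIF lay below their group mean on siHBO1 2. Between siHBO1 and siCtrl 7 of the 9 genes were above 0 (median 0.34, and -0.18 to 0.95 over the alternatives), with TNF at 0.61 (SE 0.38) and NFKBIA at 0.09 (SE 0.16). The summed signal of 8 fibroblast markers was 1840.1, 1980.01 and 5242 in siHBO1, against 1758, 3102 and 2781 in siCtrl, and so was high where KIT and CD24 were high. In that list COL1A1, COL1A2 and ACTA2 were detected on all 6 arrays, DCN and PDGFRB on 2, LUM and COL3A1 on 1 and FAP on 0. The part of these genes in the spread of KIT, CD24, SOX9 and KLF4 was not tested.

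**Figure D5:**
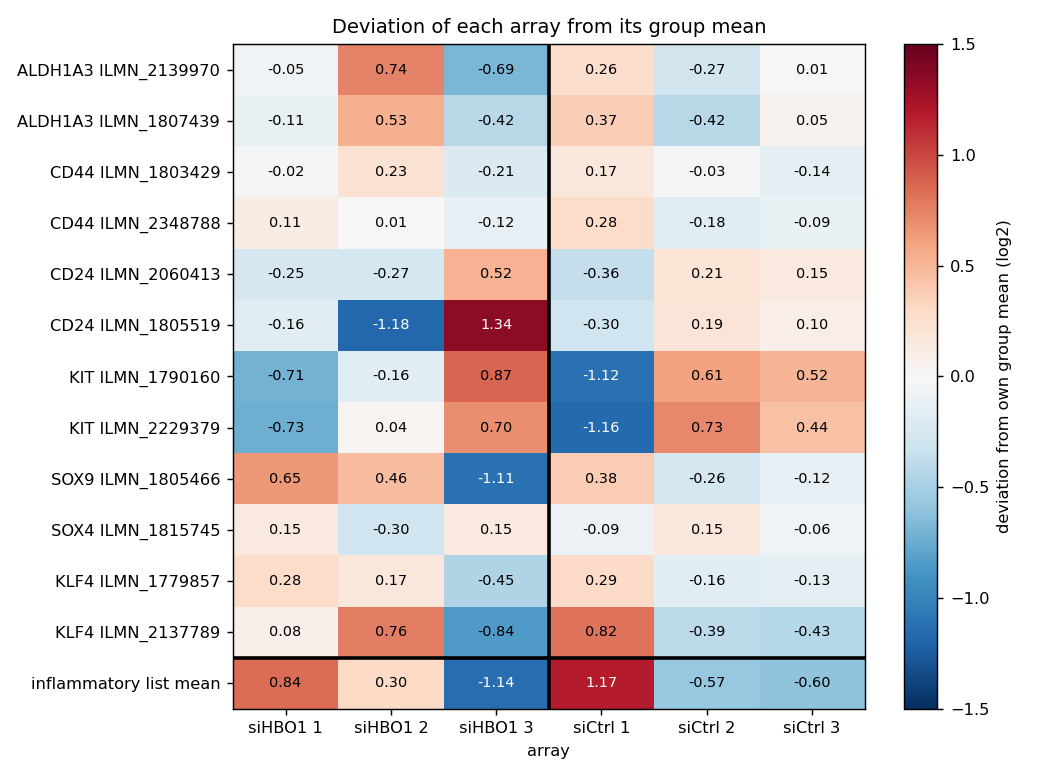
Deviation of each array (columns, siHBO1 left and siCtrl right) from its own group's mean, in log2 units, for the 12 detected probes and, in the bottom row, for the mean of the inflammatory genes. KIT and CD24 are red and SOX9 and KLF4 are blue on siHBO1 3, with the colours exchanged on siCtrl 1.

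Genes with the most similar pattern were looked up for the brightest probe of each detected member, by Pearson correlation over the 6 arrays among all named probes tested. KIT ran closest to KLHDC2 (r = 0.997) and HDAC8 (0.996), and CD24 to EFNA1 (0.999) and ECHDC2 (0.998). ALDH1A3 ran closest to TONSL (0.999) and WDR33 (0.998), and CD44 to WDR12 (0.996) and LYAR (0.995). For SOX9 these genes were MYD88 (0.991) and NXT1 (0.990), for SOX4 PPP4C (0.995) and URGCP (0.993), and for KLF4 FOXD1 (0.998) and PDE10A (0.997). These values are a description over 6 arrays that share their groups and their normalization. Taking the 2 highest among all named probes tested favours a high r by itself. MYD88 varied little, with log2 values of 6.62 to 6.85 and a within-group SD of 0.097.

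Because KIT and CD24 deviated the same way on most arrays and KLF4 and ALDH1A3 the opposite way on several, the start regions of these 4 genes are shown. SOX9 also went the opposite way, but had no listed start in the sequences used here. Each sequence covers the 250 bases before a listed start of the gene in RefSeq (GRCh38.p14), written 5′ to 3′ on the gene's strand. CD24 has 3 listed starts, of which the first in the table is given. Its window lies inside the span of the gene (chr6:106969831-106976855) and not before its outer end. At the 3 starts of CD24 in order, the GC box had 1, 0 and 1 matches and CCAAT 0, 0 and 1. Capitals mark matches to the GC box GGGCGG or to CCAAT on either strand, with overlapping matches merged.
KIT (chr4:54657707-54657956, plus strand): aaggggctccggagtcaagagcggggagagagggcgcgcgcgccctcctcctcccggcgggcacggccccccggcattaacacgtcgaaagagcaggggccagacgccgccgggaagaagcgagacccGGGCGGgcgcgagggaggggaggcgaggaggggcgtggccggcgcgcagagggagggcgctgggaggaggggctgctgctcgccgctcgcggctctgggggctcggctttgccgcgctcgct
CD24 (chr6:106975628-106975877, minus strand): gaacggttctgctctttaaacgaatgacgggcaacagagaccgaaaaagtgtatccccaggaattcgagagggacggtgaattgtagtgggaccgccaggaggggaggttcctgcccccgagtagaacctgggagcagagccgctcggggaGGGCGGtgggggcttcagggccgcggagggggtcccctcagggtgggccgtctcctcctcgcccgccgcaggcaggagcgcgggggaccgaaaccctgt
KLF4 (chr9:107489770-107490019, minus strand): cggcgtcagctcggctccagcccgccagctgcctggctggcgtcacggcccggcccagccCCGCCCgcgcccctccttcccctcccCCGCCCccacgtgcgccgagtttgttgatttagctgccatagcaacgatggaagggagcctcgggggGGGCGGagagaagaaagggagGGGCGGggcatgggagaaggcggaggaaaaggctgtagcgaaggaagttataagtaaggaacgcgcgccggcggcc
ALDH1A3 (chr15:100879581-100879830, plus strand): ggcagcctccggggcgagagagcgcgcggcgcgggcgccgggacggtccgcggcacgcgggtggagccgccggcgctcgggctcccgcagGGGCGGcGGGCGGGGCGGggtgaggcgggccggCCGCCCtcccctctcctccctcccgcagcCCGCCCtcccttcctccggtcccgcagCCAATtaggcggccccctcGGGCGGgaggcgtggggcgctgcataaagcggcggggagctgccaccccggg
The GC box had 1 match in KIT, 1 in CD24, 4 in KLF4 and 6 in ALDH1A3, and 42.6% of the 35116 windows of the same length hold at least 1. CCAAT had 1 match in ALDH1A3 and none in the other windows shown, against 32.0% of all windows. In these 4 windows neither strand held a match for the TATA box core TATAAA (10.7% of all windows), the AP-1 site TGANTCA (6.57%), the NF-kB site (1.73%) or the cAMP response element core TGACGT (7.10%). A match is a description of the letters and not a binding site.

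Genes around the markers were listed by role, and 0 in any list passed the test over all probes (0% of probes did), with each gene taken by its brightest tested probe. The retinoid pathway list holds 24 symbols of genes that carry, convert, sense or answer to retinoic acid, with RARRES3 and PLAAT4 being the same gene. Of these 14 were measured, and the log2 difference was above 0 for all 14 (0.00 to 0.51, median 0.10). Over all 11917 named genes it was above 0 for 6288 (median 0.01). The retinoid count was 10 of 14 under median scaling, 11 of 14 with array weights and 8 to 13 of 14 with 1 array left out. The 2 smallest p in the list were those of RDH13, a retinol dehydrogenase (0.29, SE 0.17), and PLAAT4, also known as retinoic acid receptor responder 3 (0.51, SE 0.37). RDH13 read 7.48, 7.83 and 7.71 on the log2 scale in siHBO1 and 7.36, 7.39 and 7.41 in siCtrl. Its groups did not overlap, as was so for 9.98% of all probes.

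Of 16 other aldehyde dehydrogenases, 13 were measured, 6 above and 7 below 0 (median -0.00). With 1 array left out the count above 0 ran from 4 (without siHBO1 3 or siCtrl 1) to 9 (without siHBO1 1 or siCtrl 2), and the median from -0.068 to 0.14. ALDH16A1, a member that lacks the catalytic cysteine in mammals, differed by 0.56 (SE 0.21), and ALDH2, the mitochondrial enzyme of ethanol breakdown, by 0.28 (SE 0.19). ALDH16A1 read 7.19, 7.12 and 7.21 in siHBO1, against 6.26, 6.66 and 6.91 in siCtrl, on the log2 scale, and its limma adjusted p was 0.999. Of the CD44 list, which holds hyaluronan synthases, hyaluronidases and membrane linkers, 13 of 20 symbols were measured, 6 above and 7 below 0 (median -0.01, between -0.027 and 0.012 over the alternatives). TMEM2 and CEMIP2 in that list are symbols of the same gene. RDX (radixin, which ties CD44 to actin) differed by -0.29 (SE 0.15) and the hyaluronidase CEMIP2 by 0.23 (SE 0.15). Partners of CD24 and PROM1 had 7 of 10 measured (6 above 0, median 0.12), with the kinase LYN and the surface protein CD47 at 0.14 each. Without siHBO1 3 that count was 4 of 7 and the median 0.031.

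In the KIT signalling list 10 of 16 genes were measured, 6 above 0 (median 0.08). The median was 0.014 with median scaling, 0.024 without siCtrl 1 and 0.19 without siCtrl 3. The ligand KITLG (stem cell factor), chosen for its role and after its value was seen, differed by -0.33 (SE 0.24). The adaptor SHC1 differed by 0.31 (SE 0.10) without overlap of the groups, as was so for 9.98% of all probes, and STAT3 by 0.29 (SE 0.15). Among other SOX factors 7 of 18 were measured, 5 above 0 (median 0.17), with SOX17, a factor of the fallopian tube and ovarian carcinoma lineage, at 0.47 (SE 0.17) and SOX18 at -0.32 (SE 0.17). SOX17 read 8.31, 8.25 and 8.13 in siHBO1, against 7.94, 7.74 and 7.62 in siCtrl, on the log2 scale. Of other KLF factors 8 of 16 were measured, 5 above 0 (median 0.12), with KLF9 at 0.28 (SE 0.23) and KLF7 at -0.23 (SE 0.20). The KLF median was 0.010 without siHBO1 2 and 0.27 without siHBO1 3. The SOX median ran from 0.057 to 0.20 over the alternatives. The groups of ALDH16A1, ALDH2, CEMIP2, SOX17 and SOX18 did not overlap either. These genes, like RDH13 and SHC1 above and BMI1 and TWIST1 below, were named for the 2 smallest p of their lists. That choice favours groups without overlap, so the 9.98% of all probes is no yardstick for them.

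Of 23 further stem cell and pluripotency markers, 10 were measured, 6 above and 4 below 0 (median 0.08, between -0.12 and 0.13 over the alternatives). The Polycomb protein BMI1 read 11.45, 11.55 and 11.49 on the log2 scale in siHBO1, against 12.15, 12.06 and 11.86 in siCtrl. TWIST1, a factor of epithelial-mesenchymal transition, read 8.96, 8.87 and 8.73 in siHBO1, against 8.43, 8.38 and 8.72 in siCtrl. The limma adjusted p was 0.999 for both genes. In both the groups did not overlap, for TWIST1 by a margin of 8.73 against 8.72, as was so for 9.98% of all probes. NES (nestin), singled out after its values were seen, was lower without overlap too, with a difference of -0.39 (SE 0.23, limma adjusted p 0.999).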

How the data were processed

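Per the file headers, the deposited intensity is the mean bead signal of each probe and the deposited detection p-value is counted against each array's negative controls. The authors' deposited value table is log2, judged from its values, with the same sorted values on every array. The submitters' processing notes list GenomeStudio and lumi without saying what each did, and how background was treated there is not stated in the sources used here. Probe symbols came from the platform table.

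Here neqc (normexp, offset 16, quantiles) of limma 3.58.1 in R 4.3.3 gave log2 values, and a probe was tested where 3 or more of 6 arrays detected it (20744 probes). Each such probe entered lmFit and eBayes (trend on intensity, two-sided), adjusted by Benjamini-Hochberg. A single value also had an exact permutation test over arrays. The fit was tested on simulated data. The number of arrays limits the precision. Alternatives changed the background, normalization, filter, probe choice, weights, replicate block and arrays.

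The members and lists were chosen with earlier results of these data known. All members and KAT7 are named, with the 2 smallest p of each list and the 2 genes most like each detected member. Other genes named are marker genes or were singled out after their values were seen.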

Additional observations from a re-analysis of the deposited data

How the results depend on the processing

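In 15 alternative fits, 14 for probes that were not their gene's brightest, 0 member probes passed the test. Over all probes 1 was called with array weights and 4 with the replicate block, against 0 as reported and 0 in the other alternatives. KAT7 stayed below 0 in all 14 that tested it (-1.34 to -0.36, limma adjusted p 0.267 or more); detection on all 6 arrays removed it. Since its groups do not overlap, fits that leave out an array could not change its sign. Pairing by replicate number was not assumed: the deviations of arrays 1, 2 and 3 correlated across groups at 0.56, 0.022 and 0.46, those of unlike-numbered arrays at -0.55 to 0.31, and 4 of 6 arrays were most like their own number, a hint from the data and not the design. With the block the smallest adjusted p of a member was 0.734 (SOX9).

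SOX9 (0.24 to 1.12), SOX4 (0.10 to 0.32) and KLF4 ILMN_1779857 (0.01 to 0.38) were above 0 in every alternative. Small differences turned sign: CD44 ILMN_1803429 was 0.034 with median scaling and 0.012 with array weights, CD44 ILMN_2348788 was -0.030 with median scaling, and CD24 ILMN_1805519 was 0.023 without background correction. With 1 array left out, the ranges were -0.17 to 0.54 and -0.12 to 0.36 for ALDH1A3 (ILMN_2139970, ILMN_1807439), -0.13 to 0.094 and -0.061 to 0.17 for CD44 (ILMN_1803429, ILMN_2348788), -0.32 to 0.072 and -0.69 to 0.57 for CD24 (ILMN_2060413, ILMN_1805519), -0.75 to 0.17 and -0.73 to 0.21 for KIT (ILMN_1790160, ILMN_2229379) and -0.24 to 0.56 for KLF4 ILMN_2137789. Fewer arrays by construction give each remaining array more weight; other causes were not tested. Without siHBO1 3 the unadjusted limma p was 0.0017 for SOX9 (1.12) and 0.0498 for CD24 ILMN_1805519 (-0.69), in opposite directions. These were 2 of 12 member probes under 0.05, beside 1009 of all 20744 probes in that fit. On the array left out, SOX9 was lowest in its group (deviation -1.11) and CD24 ILMN_1805519 highest (1.34). With array weights the unadjusted limma p of SOX9 was 0.047. That was 1 of 12 member probes, beside 1573 of all 20744 probes. Slide as a block was not run, as the labels give none. Signal over background limits SOX9, KLF4 and the undetected members.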

Other observations

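KRT7, KRT19, KRT18, MSLN, COL1A1 and ACTA2 were chosen here after their values were seen. KRT7 and KRT19 encode keratins of simple epithelia. KRT7 read 1459, 416 and 471 on siHBO1 1 to 3, against 1134, 569.6 and 354 on siCtrl 1 to 3. KRT19 read 2013, 925 and 1287 in siHBO1 and 2372, 1095 and 895 in siCtrl. Both were highest on the first replicate of each group, the arrays on which KIT was lowest in its group. KRT18 shared this, with 793.5, 652 and 594 in siHBO1 and 823, 552 and 482 in siCtrl. So did MSLN, with 815, 528 and 571 in siHBO1 and 857, 610 and 535 in siCtrl. Some other epithelial genes did not: KRT8 read 3338, 2215 and 4161 in siHBO1 and 2959, 2965 and 2865 in siCtrl. EPCAM, FOLR1 and ERBB2 were highest on siHBO1 3 among the siHBO1 arrays. Among the siCtrl arrays EPCAM and FOLR1 were highest on siCtrl 1 and ERBB2 on siCtrl 3. COL1A1, a chain of type I collagen, read 489.7, 574 and 2200.3 in siHBO1 and 373, 1185 and 979.95 in siCtrl. Its highest array, siHBO1 3, was also the highest for KIT ILMN_1790160 and both tested CD24 probes, while KIT ILMN_2229379 was highest on siCtrl 2. ACTA2, smooth muscle actin, read 393, 454 and 1144 in siHBO1 and 384, 689 and 718 in siCtrl, again highest on siHBO1 3.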
